A study of Homo sapiens with 15 samples.

Results

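The MS4A genes code for small proteins that cross the cell membrane several times and sit beside each other on human chromosome 11. MS4A1 (CD20) marks B cells, while most other members are known from myeloid cells. MS4A2 is the β chain of the high-affinity IgE receptor of mast cells and basophils, MS4A3 (HTm4) marks granulocyte and monocyte progenitors and basophils, and MS4A4A, MS4A6A and MS4A7 are known from monocytes and macrophages. MS4A4E, MS4A6E and MS4A14 are less studied members of the same cluster.

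The 8 genes MS4A2, MS4A3, MS4A4A, MS4A4E, MS4A6A, MS4A6E, MS4A7 and MS4A14 were read by symbol from 2 tables of RNA-seq values, of 17769 and 60510 genes with an identifier. Values were read for 5 of the 8 in the knockout table and for all 8 in the resistance table. They were chosen with their differences in the comparisons below already known, so these differences are given as a description, without printed p-values. Calls of members rest on an adjusted p and are likewise only a description. All libraries came from K562, an established BCR-ABL1 positive line of chronic myeloid leukemia. The knockout table held 3 libraries each of an empty vector control (EV, genotype WT), of cells without HSP90α (HSP90α-KO) and of cells without HSP90β (HSP90β-KO). Cas9 and a guide RNA were delivered by lentivirus, and cells were sorted by a fluorescent marker and selected as single clones, so loss of an isoform and the history of a clone cannot be told apart. The resistance table held 3 libraries of parental cells kept long term in DMSO and 3 of cells made resistant to the HSP90 inhibitor PU-H71 by rising doses (PUHr), also selected as clones. The labels give genotype WT for both, which does not cover changes acquired during selection, so parental and PUHr cells cannot be taken to share a genotype.

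Reads on genes numbered 19594381 to 26216730 per library, and 1 read was worth 0.0381 to 0.0518 CPM, the count of a gene scaled to the size of its library. HSP90AA1, which codes for HSP90α, lay at 90.4 ± 2.34 CPM in HSP90α-KO and 704 ± 18.7 CPM in EV (SD, n = 3). HSP90AB1, which codes for HSP90β, lay at 1913 ± 25.1 CPM in HSP90β-KO and 2806 ± 21.1 CPM in EV, so its transcript was still abundant in the knockout. The labels do not say whether replicates were separate cultures. The paper calls the 3 replicates behind HSP90α-KO against EV and PUHr against parental independent. The p-values measure only the spread between these libraries, which may be technical. The 2 tables were normalized separately, and levels are compared only within a table.

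In the GENCODE v44 annotation (GRCh38) the cluster runs along chromosome 11 in the order MS4A3 (chr11:60056587-60071115), MS4A2 (chr11:60088261-60098467), MS4A6A (chr11:60172015-60184666), MS4A4A (chr11:60185657-60318080), MS4A4E (chr11:60200270-60243137), MS4A6E (chr11:60327255-60396596), MS4A7 (chr11:60378485-60395951) and MS4A14 (chr11:60378530-60417756). MS4A6A and MS4A4E lie on the reverse strand and the others on the forward strand. MS4A4E lies within the span of MS4A4A on the opposite strand, with no shared exonic base. The RefSeq start of MS4A4A used below lies beyond the end of MS4A4E, so the overlap rests on the wider GENCODE span. The main transcripts of MS4A4A and MS4A4E were 91.3% identical over 538 aligned bases. No stretch of 76 bases, the length of a read, was shared between them, so a read without mismatches could be assigned to either gene. Of the 76-base windows of the MS4A4E main transcript, 7.2% also occurred in annotated transcripts of genes outside the family. Its values are uncertain at least to that extent, since the rest of the genome was not searched.

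The stretches of 250 bases before the RefSeq starts (GRCh38.p14) of MS4A3, MS4A2, MS4A4E and MS4A4A are shown. These genes stood far apart between HSP90α-KO and EV. MS4A6A did too, but it had several RefSeq starts and is not shown. Capitals mark 3 short motifs on either strand: GATAA, the core bound by GATA factors, GAGGAA, an ETS core of the kind bound by PU.1, and TTGCNNAA, a C/EBP core. No base lay in 2 matches. The windows of MS4A3 (chr11:60056415-60056664) and MS4A2 (chr11:60088414-60088663) read along the forward strand, as does that of MS4A4A (chr11:60280416-60280665), and that of MS4A4E (chr11:60243138-60243387) along the reverse strand.
MS4A3: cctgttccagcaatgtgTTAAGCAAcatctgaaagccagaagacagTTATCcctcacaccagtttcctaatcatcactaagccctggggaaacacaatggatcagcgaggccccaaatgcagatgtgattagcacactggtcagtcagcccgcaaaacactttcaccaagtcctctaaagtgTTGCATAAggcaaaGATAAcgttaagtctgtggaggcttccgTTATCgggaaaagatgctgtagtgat
MS4A2: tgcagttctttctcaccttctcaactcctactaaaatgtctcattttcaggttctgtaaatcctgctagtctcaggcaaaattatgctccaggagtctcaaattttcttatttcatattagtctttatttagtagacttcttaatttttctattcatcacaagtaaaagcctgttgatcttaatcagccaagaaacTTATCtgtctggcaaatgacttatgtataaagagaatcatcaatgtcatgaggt
MS4A4E: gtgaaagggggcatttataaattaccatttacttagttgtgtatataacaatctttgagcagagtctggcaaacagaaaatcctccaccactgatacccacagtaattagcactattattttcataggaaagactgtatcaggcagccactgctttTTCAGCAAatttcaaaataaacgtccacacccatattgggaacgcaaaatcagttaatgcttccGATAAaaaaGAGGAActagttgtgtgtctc
MS4A4A: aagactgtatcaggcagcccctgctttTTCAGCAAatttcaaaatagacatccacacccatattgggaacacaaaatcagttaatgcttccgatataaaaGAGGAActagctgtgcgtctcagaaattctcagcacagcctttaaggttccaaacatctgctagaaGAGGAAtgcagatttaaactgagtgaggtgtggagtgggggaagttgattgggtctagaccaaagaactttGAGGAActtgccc

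The MS4A3 window held 3 GATAA matches, and 0.675% of 35116 RefSeq promoter windows of this length held 3 or more. It also held 2 TTGCNNAA matches, a number reached by 0.829% of windows. MS4A2 and MS4A4E held 1 GATAA match each, and 20.4% of windows held at least 1. MS4A4A held none and had 3 GAGGAA matches, a number reached by 0.421% of windows. MS4A4E also held 1 GAGGAA and 1 TTGCNNAA match, and MS4A4A 1 TTGCNNAA match. At least 1 GAGGAA match was held by 23.6% of windows, and at least 1 TTGCNNAA match by 9.05%. The promoters of MS4A4A and MS4A4E aligned over 171 bases with 93% identity. MS4A6A had 4 RefSeq starts, none with GATAA, while some held a GAGGAA or a TTGCNNAA match. MS4A6E had no window in the table used. The shares over all windows were not matched for base composition, and several motifs and windows were looked at, so rare counts are only described. A match describes the letters of the window and was not tested as a bound site.

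The question put to the knockout libraries was how the transcriptome differed when either HSP90 isoform was lost. MS4A3 was the most abundant member in every knockout group. EV libraries held 170, 126 and 177 MS4A3 reads, HSP90α-KO libraries 8002, 7939 and 8057, and HSP90β-KO libraries 307, 286 and 357. These were mean levels of 6.97 ± 1.02, 405 ± 12.6 and 13.7 ± 1.29 CPM (SD, n = 3). No EV library came near an HSP90α-KO library. All HSP90β-KO libraries lay above EV, with a ratio of 1.96 (95% counting interval 1.75 to 2.19). The ratio of HSP90α-KO to EV was 58.2 (95% counting interval 53.2 to 63.9), a log2 difference of 5.85 (SE 0.074). In bulk RNA, more cells of a kind and more RNA per cell cannot be told apart.

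MS4A2, which amplifies signals of the IgE receptor, went from near absence to a low level. EV libraries held 0, 2 and 4 reads, HSP90α-KO libraries 145, 132 and 135, and HSP90β-KO libraries 1, 2 and 1. Only the HSP90α-KO libraries stood apart, at 6.95 ± 0.121 CPM against 0.0830 ± 0.0771 CPM in EV. The ratio was 78.8, with a wide counting interval of 35.9 to 216 because EV held 6 reads in all.

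MS4A4A, a macrophage surface protein, had 7, 13 and 8 reads in EV, 672, 674 and 659 in HSP90α-KO and 53, 55 and 47 in HSP90β-KO. The 3 groups did not overlap, with HSP90β-KO between the others. Levels were 0.421 ± 0.178, 33.8 ± 1.06 and 2.25 ± 0.345 CPM in the same order. The ratio to EV was 82.2 (56.7 to 124) in HSP90α-KO and 5.40 (3.60 to 8.40) in HSP90β-KO. This was the highest ratio of any member in both knockouts, but the intervals of all 5 members overlapped in HSP90α-KO, as did those of MS4A4A and MS4A6A in HSP90β-KO.

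MS4A6A, found in monocytes and microglia, had 3, 1 and 3 reads in EV, 115, 121 and 117 in HSP90α-KO and 10, 9 and 10 in HSP90β-KO. Its groups also kept apart in this order. The ratio to EV was 57.9 (27.8 to 145) in HSP90α-KO and 4.05 (1.73 to 10.9) in HSP90β-KO. MS4A4E had 8, 4 and 7 reads in EV, 392, 402 and 413 in HSP90α-KO and 11, 6 and 6 in HSP90β-KO. Here HSP90β-KO overlapped EV, and the ratio was 72.9 (46.5 to 121.5) in HSP90α-KO and 1.18 (0.616 to 2.29) in HSP90β-KO.

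**Figure D1:**
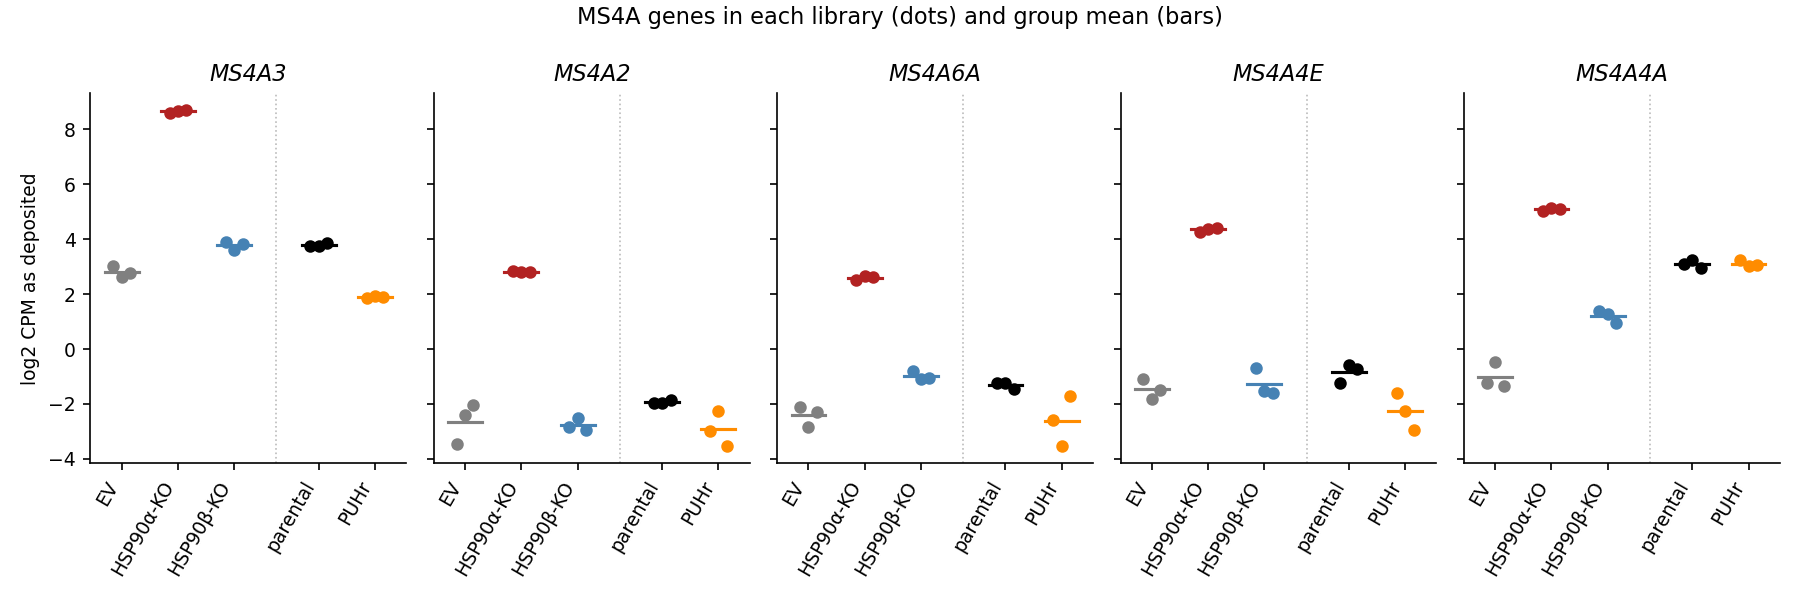
Deposited log2 CPM of 5 MS4A genes, with 1 dot per library and a bar at the mean of each group. A dotted line parts the knockout table from the separately normalized resistance table. In every panel the 3 HSP90α-KO libraries lie above all EV and HSP90β-KO libraries.

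All 5 members with values in the knockout table were called higher in HSP90α-KO, where 10.3% of 17039 tested genes were changed, 5.32% higher and 5.01% lower. Their libraries did not overlap those of EV, as in 57.3% of tested genes. A gene was called changed with an adjusted p under 0.05 and a log2 difference above 1 or below -1. Since the members were chosen on this comparison, nothing is read from the count. MS4A2, MS4A4E and MS4A6A would not have entered the test without the HSP90α-KO libraries, in which they were high. MS4A4A, MS4A3, MS4A4E, MS4A2 and MS4A6A ranked 4, 6, 8, 10 and 15 from the highest log2 difference. The remaining members, MS4A6E, MS4A7 and MS4A14, were among the 8 but had no value read from the knockout table and were not analysed there.

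In HSP90β-KO 2 of the 5 members, MS4A4A and MS4A6A, were called higher, where 4.48% of genes were changed, 1.83% higher and 2.65% lower. MS4A6A lost its call with a pseudocount of 1 or 5 CPM, where its log2 difference fell to as low as 0.09. It was not tested when the fit held only the EV and HSP90β-KO libraries, or with a mean log2 CPM of at least 1. MS4A4A lost its call with 5 CPM. MS4A3 had a log2 difference of 0.97, just under the threshold of 1. The libraries of MS4A3, MS4A4A and MS4A6A, 3 of the 5, did not overlap those of EV, as in 46.6% of tested genes. It passed the threshold at 1.08 without EV replicate 1 and at 1.05 without HSP90β-KO replicate 2. MS4A2 and MS4A4E overlapped EV. Both knockouts share the same EV libraries, and the counting intervals of MS4A3, MS4A4A and MS4A6A in HSP90α-KO lay wholly above those in HSP90β-KO.

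Per kilobase of main transcript, the order in HSP90α-KO was MS4A3 with a level of 250.4 CPM per kb, MS4A4A with 22.2, MS4A4E with 8.27, MS4A6A with 4.58 and MS4A2 with 1.91. No neighbours in this order overlapped. The same order of mean levels held in EV, from 4.31 CPM per kb for MS4A3 to 0.0227 for MS4A2, though there MS4A4E overlapped MS4A6A and MS4A6A overlapped MS4A2. MS4A3 made up 88.7% of the summed CPM of the members in EV, 85.8% in HSP90α-KO and 81.7% in HSP90β-KO.

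The resistance libraries address what sets cells that grow under PU-H71 apart from parental cells. MS4A3 had 320, 315 and 308 reads in parental cells and 87, 89 and 81 in PUHr. The groups lay far apart, at levels of 13.7 ± 0.641 and 3.61 ± 0.114 CPM, a 3.80-fold lower level in PUHr (3.31 to 4.38) and a log2 difference of -1.90 (SE 0.089). MS4A4A had 201, 222 and 161 reads in parental cells and 234, 191 and 186 in PUHr. Its groups overlapped and the ratio was 1.01 (0.900 to 1.13). Of the 2 members that passed the filter, 1 was called lower, where 10.1% of 16503 tested genes were changed, 5.37% higher and 4.69% lower. The same 1 of 2 did not overlap between groups, as in 58.5% of tested genes.

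The other members were near the limit of detection in this table. MS4A4E had 8, 14 and 11 reads in parental cells and 6, 3 and 1 in PUHr, a ratio of 0.293 (0.129 to 0.608). MS4A6A had 8, 8 and 6 reads in parental cells and 2, 0 and 5 in PUHr, a ratio of 0.307 (0.111 to 0.744). MS4A2 had 4 reads in each parental library and 1, 3 and 0 in PUHr, and the interval of its ratio (0.0756 to 1.06) held 1. The libraries of all 3 genes kept apart, with PUHr lower. Of tested genes, 58.5% did not overlap between these groups in either direction, but these 3 did not pass the filter. MS4A6E had 1 read in parental cells and 2 in PUHr. MS4A7 and MS4A14 had 0 reads in all 6 libraries, which allows levels of up to 0.0436 CPM in parental cells and 0.0421 CPM in PUHr.

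**Figure D2:**
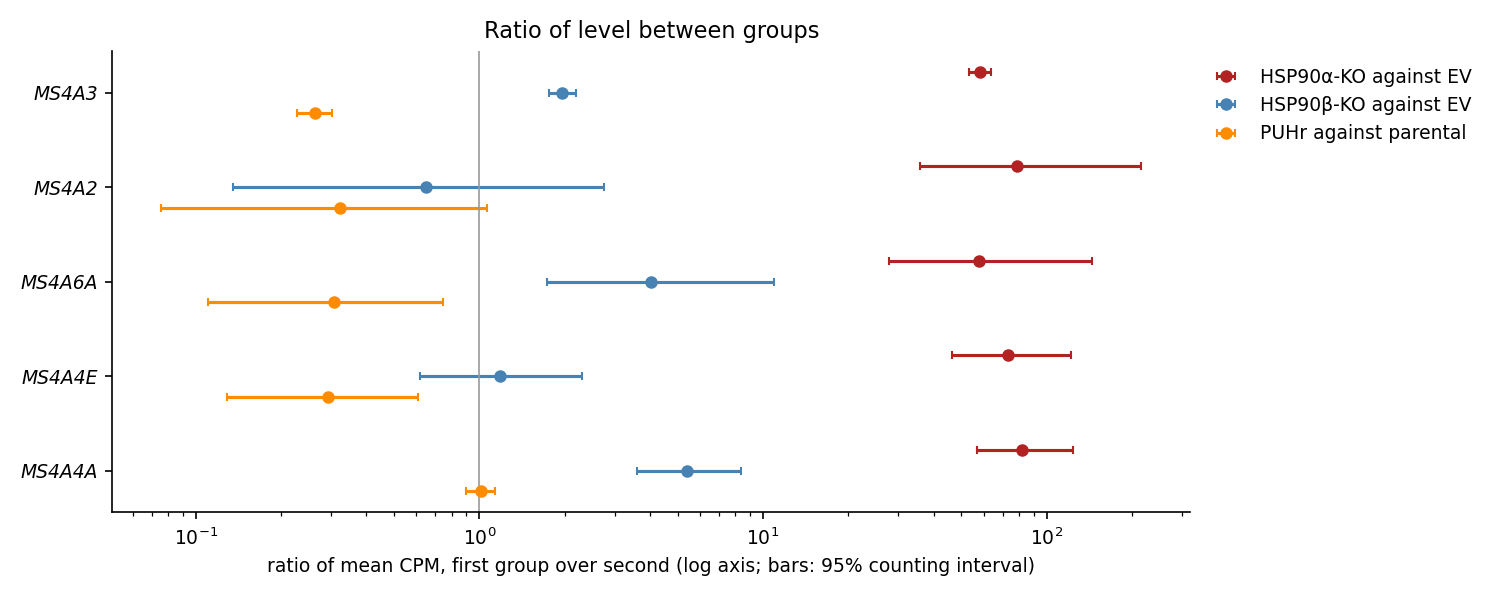
Ratio of mean CPM on a log axis for 5 MS4A genes, with bars for the 95% counting interval, which covers counting error only. Ratios of HSP90α-KO to EV lie between 57.9 and 82.2, while in PUHr MS4A4A sits at 1.01 and the other genes below 0.33.

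MS4A3 made up 59.3% of the members' CPM in parental cells and 28.9% in PUHr, and MS4A4A 36.5% and 68.5%. Per kilobase, MS4A3 lay above MS4A4A in parental cells (8.49 and 5.55 CPM per kb) and below it in PUHr (2.23 and 5.62), without overlap in either group. Mean levels of MS4A4A were 8.45 ± 0.881 CPM in parental cells and 8.55 ± 0.746 CPM in PUHr.

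Genes beside the cluster were described next, for all genes within 1 Mb of its ends. Of 36 tested genes, 6 were higher and 2 lower in HSP90α-KO, with a median log2 difference of 0.29, against -0.01 over all genes. The changed share was 22.2%, against 10.3% of all tested genes. Of the 6, TCN1, OOSP4B and SLC15A3 would not have passed the filter without the HSP90α-KO libraries. They could enter only by being higher there, and they are described without a p. Over the 32 flanking genes that did not depend on their higher group to pass, 3 were higher and 2 lower, with a median of 0.25. TCN1, which codes for the vitamin B12 binder haptocorrin of granulocytes and starts 190 kb before MS4A3, had 242 to 277 reads in HSP90α-KO and 1 to 5 in EV, a log2 difference of 5.97. OOSP4B, which starts 78.6 kb before MS4A3, had 22 to 25 reads against 0 to 2, a log2 difference of 3.49. MRPL16, a mitochondrial ribosomal protein gene 246 kb before MS4A3, rose from 73.1 ± 1.98 to 189 ± 1.73 CPM (log2 difference 1.37, adjusted p = 1e-21). The unnamed gene ENSG00000254477, 302 kb before MS4A3, had a log2 difference of 1.36 (adjusted p = 3.01e-05). SLC15A3, a peptide and histidine transporter gene 896 kb beyond its start, had levels of 1.18 ± 0.191 CPM in HSP90α-KO and 0.319 ± 0.112 CPM in EV. Between MRPL16 and the end of the cluster, no tested gene other than TCN1, OOSP4B and the members was found.

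The flanks were not all higher. FAM111A, 914 kb before MS4A3, fell from 15.5 ± 0.961 to 5.05 ± 0.315 CPM in HSP90α-KO (log2 difference -1.60, adjusted p = 1.35e-16) and rose to 44.5 ± 0.898 CPM in HSP90β-KO (1.52, adjusted p = 1.94e-15). It fell in PUHr (-1.85, adjusted p = 4.79e-11). Its divergent transcript FAM111A-DT had log2 differences of -1.15 in HSP90α-KO and 1.11 in HSP90β-KO (adjusted p = 0.00255 and 0.00606). The call in HSP90α-KO was lost without HSP90α-KO replicate 1. In PUHr, where it passed the filter only through the parental libraries, its level was 0.255 ± 0.117 CPM against 0.715 ± 0.109 CPM. In HSP90β-KO, TCN1 had 0 to 2 reads and OOSP4B 0 to 1. Of the 36 genes 3 were higher and 0 lower, or 8.33%, against 4.48% of all genes changed. In PUHr 2 of 34 flanking genes were higher and 3 lower, or 14.7%, against 10.1% of all genes changed. Among them were ENSG00000254477 (1.22, adjusted p = 0.000471) and the cilium gene TMEM216 (-2.02, adjusted p = 2.3e-08). TMEM132A, 868 kb beyond the start of MS4A3, was higher in all 3 comparisons, with log2 differences of 1.89, 1.29 and 2.27 (adjusted p = 4.39e-12, 1.87e-08 and 3.51e-10).

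The family relatives TMEM176A and TMEM176B lie on another chromosome and were not used to choose the members. TMEM176A rose from 1.45 ± 0.307 to 5.34 ± 0.648 CPM in HSP90α-KO (log2 difference 1.83, adjusted p = 8.79e-09), and TMEM176B from 1.75 ± 0.204 to 4.29 ± 0.391 CPM (1.26, adjusted p = 2.5e-07). In HSP90β-KO limma called 0 of the 2, with 0 at an unadjusted p under 0.05 and 0 by voom. In the resistance table both passed the filter only through the parental libraries, so they are described without a p. TMEM176A lay at 3.05 ± 0.286 CPM in parental cells and 0.169 ± 0.00873 CPM in PUHr, and TMEM176B at 2.57 ± 0.168 and 0.0834 ± 0.0406 CPM. MS4A1 had 0 reads in all parental and PUHr libraries.

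MS4A2 works within the IgE receptor, whose α chain binds IgE and whose γ chain passes the signal to SYK. FCER1A, the α chain, had 0 reads in all 6 resistance libraries, and FCER1G, the γ chain, had 9 reads in parental cells and 12 in PUHr. Neither chain was analysed in the knockout libraries. Of 21 genes of IgE receptor signalling, 19 were tested in HSP90α-KO, where 2 were higher and 0 lower. These were 10.5% of those tested, near the 10.3% of all genes. They were the adaptor LCP2, from 31.3 to 192 CPM (log2 difference 2.61, adjusted p = 9.89e-27), and the lipid phosphatase INPP5D, from 7.96 to 45.9 CPM (2.51, adjusted p = 8.12e-20). HSP90β-KO had 0 called by limma, 7 at an unadjusted p under 0.05 and 0 by voom. In PUHr 4 of 19 were lower and 0 higher. This was 21.1% of those tested, against 10.1% of all genes changed and 4.69% lower. The kinase SYK fell from 39.5 to 0.490 CPM (-6.11, adjusted p = 1.05e-14), and the signalling genes PLCG2, VAV1 and INPP5D had log2 differences of -3.03, -2.94 and -2.54 (adjusted p = 2.23e-12, 1.99e-13 and 3.24e-10).

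A list of 19 mast cell and basophil genes also held genes known from eosinophils, such as EPX, PRG2 and IL5RA. Of the 19, 10 were tested in the knockout libraries, CPA3 and TPSAB1 not among them. In HSP90α-KO 5 were higher and 1 lower. The changed share was 60%, against 10.3% of all tested genes. Medians over all tested genes were -0.01 in HSP90α-KO, 0.0016 in HSP90β-KO and 0.0047 in PUHr. Of the 5, 2 passed the filter only through the HSP90α-KO libraries and are given without a p. They were the interleukin-5 receptor IL5RA, with 131 to 141 reads against 2 to 6 in EV, and the basophil surface enzyme ENPP3, with 77 to 111 against 1 to 2. The median log2 difference was 1.11 over the 10 genes and 0.05 over the 8 others. KIT, the stem cell factor receptor, rose from 9.11 ± 0.378 to 37.6 ± 0.602 CPM (2.04, adjusted p = 5.08e-19). The granule protein genes EPX and PRG2 had log2 differences of 2.70 and 2.60 (adjusted p = 1.27e-12 and 2.26e-10), and the inhibitory receptor SIGLEC8 of -1.17 (adjusted p = 1.74e-07). In PUHr 0 of 9 were higher and 5 lower, or 55.6%, against 10.1% of all genes changed. Of the 5, however, 4 passed the filter only through the parental libraries and could enter only by being lower in PUHr. These were HDC, which makes histamine, with 46 to 66 reads in parental cells and 4 to 7 in PUHr, ENPP3 with 30 to 53 and 3 to 9, PRG2 with 16 to 24 and 1 to 2, and EPX with 54 to 63 and 7 to 10. The receptor SIGLEC6 did not depend on them (-1.17, adjusted p = 2.41e-06). The median was -1.17 over the 9 genes and -0.04 over the 5 others. HSP90β-KO had 1 higher, HDC (1.54, adjusted p = 1.66e-05), and 1 lower, PRG2 (-1.96, adjusted p = 1.04e-07). These calls were 20% of the 10 tested genes, against 4.48% of all genes. The summed level of the list was 304 to 333 CPM in HSP90α-KO and 248 to 263 CPM in EV. Of the 19 genes, 8 had 0 reads in parental cells and 7 in PUHr, CPA3 and TPSAB1 in both.

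Of 24 monocyte and macrophage genes, 9 were tested in HSP90α-KO, where 5 were higher and 0 lower, with a median of 1.08 over these 9. The 5 were 55.6% of those tested, against 10.3% of all genes changed and 5.32% higher. TYROBP, an adaptor of myeloid receptors, rose from 0.928 to 4.16 CPM (2.11, adjusted p = 2.04e-08) and the complement receptor VSIG4 from 1.22 to 3.84 CPM (1.58, adjusted p = 1.27e-07). The Fc receptor genes FCGR1A and FCGR2A and the oxidase gene CYBB had log2 differences of 1.26, 1.08 and 1.20 (adjusted p = 1.94e-13, 6.35e-19 and 1.39e-15). In PUHr 4 of 7 were lower, or 57.1%, against 10.1% of all genes changed and 4.69% lower. Of these, TYROBP and AIF1 passed the filter only through the parental libraries. Over the 5 others the median was -0.47, against -1.46 over the 7. Those 5 included the myeloid transcription factor gene SPI1, which codes for PU.1, from 30.4 ± 1.43 to 11 ± 0.349 CPM (-1.46, adjusted p = 4.54e-11). FCGR2A had a difference of -1.56 there (adjusted p = 3.86e-11). TYROBP had 12 to 15 reads in parental cells and 0 to 4 in PUHr and was not called when no filter was used, and AIF1, a macrophage calcium-binding protein gene, had 47 to 68 and 5 to 12. HSP90β-KO had 0 called by limma, 3 at an unadjusted p under 0.05 and 0 by voom.

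Of 12 granulocyte progenitor genes, 6 were tested in HSP90α-KO, where 3 were higher and 1 lower. The changed share was 66.7%, against 10.3% of all tested genes. The median log2 difference was 0.85 over the 6, and 0.64 over the 5 that did not depend on the HSP90α-KO libraries. The transcription factor gene GFI1 rose from 1.29 ± 0.200 to 14.6 ± 1.03 CPM in HSP90α-KO (3.42, adjusted p = 2.11e-14), and fell to 0.324 ± 0.101 CPM in HSP90β-KO (-1.76, adjusted p = 2.89e-08). In the resistance table GFI1 and SRGN, the 2 of 5 called lower in PUHr, passed the filter only through the parental libraries, and GFI1 lay at 4.25 CPM in parental cells and 0.365 CPM in PUHr. CEBPA, which codes for C/EBPα, had a log2 difference of -1.11 in HSP90α-KO (adjusted p = 1.06e-07), against 1.06 for the progenitor factor gene MYB (adjusted p = 6.49e-21), which lost its call with quantile normalization. The protease gene PRTN3, the third called higher, passed the filter only through the HSP90α-KO libraries, with 11 to 19 reads against 1 to 5 in EV. The G-CSF receptor CSF3R fell from 85.5 to 25.4 CPM in HSP90β-KO (-1.75, adjusted p = 9.29e-21). With GFI1 it made 2 of 6 called lower there, or 33.3%, against 4.48% of all genes changed and 2.65% lower. SRGN, the granule proteoglycan serglycin, had 188 to 212 reads in parental cells and 0 in PUHr. MPO, ELANE and CTSG had 0 reads in parental and PUHr libraries. CDKN3, which MS4A3 protein binds, and 4 cyclin and CDK2 genes had 0 called by limma or voom in each comparison, with 4, 2 and 5 at an unadjusted p under 0.05 in HSP90α-KO, HSP90β-KO and PUHr.

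Markers of other lineages moved as well. Over all tested genes, 10.3% were changed in HSP90α-KO, 4.48% in HSP90β-KO and 10.1% in PUHr. Of 13 tested erythroid genes (14 in the list), which mark K562, 1 was higher and 3 lower in HSP90α-KO, and their summed level was 971 to 997 CPM, against 1244 to 1269 CPM in EV. It was 2539 to 2615 CPM in PUHr and 3145 to 3187 CPM in parental cells. The globin genes HBG2 and HBZ and the heme synthesis gene ALAS2 had log2 differences of -1.22, -1.04 and -1.56 in HSP90α-KO (adjusted p = 1.5e-10, 2.05e-14 and 5.52e-23). The anion exchanger gene SLC4A1, called higher but not without EV replicate 1, passed the filter only through the HSP90α-KO libraries, with 15 to 17 reads against 3 to 11 in EV. In PUHr 1 was higher, ALAS2 (1.01, adjusted p = 1.67e-12), whose call was lost without parental replicate 2, PUHr replicate 1 or PUHr replicate 3 and with median centring, and 1 was lower, SLC4A1, which passed only through the parental libraries, with 54 to 70 reads there and 4 to 13 in PUHr. HSP90β-KO had 0 erythroid genes called by limma, 8 at an unadjusted p under 0.05 and 0 by voom. Of 3 tested T cell genes (8 in the list), CD3E and CD3G fell in HSP90α-KO (-2.85 and -2.60, adjusted p = 4.74e-10 and 8.18e-08), and CD3D and CD3G rose in HSP90β-KO (1.26 and 1.59, adjusted p = 6.36e-10 and 0.000216). In PUHr limma called 0 of them, with 2 at an unadjusted p under 0.05 and 1 by voom. Of 3 tested B cell genes (10 in the list), CD22 was lower in HSP90α-KO (-1.06, adjusted p = 0.00011), a call lost without EV replicate 3 or HSP90α-KO replicate 3, and higher in PUHr (1.92, adjusted p = 1e-07), and HSP90β-KO had 0 by limma, 0 at an unadjusted p under 0.05 and 0 by voom. B cell genes summed to 5.96 to 6.98 CPM in HSP90α-KO and 7.42 to 8.92 CPM in EV. The part of these lineage markers in the MS4A values was not tested.

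By Pearson correlation over the 9 knockout libraries, the genes whose log2 CPM was most like MS4A3 were GABRE (r = 0.9988), ATP1B1 (r = 0.9987) and MCMBP (r = 0.9982). They shared its order of groups with smaller steps, ATP1B1 for example at 4.88 CPM in EV, 7.44 in HSP90β-KO and 40.5 in HSP90α-KO. In all 71 genes reached 0.99. MS4A6A (0.99) and MS4A4E (0.989) were closer to MS4A3 than MS4A2 and MS4A4A (both 0.969). The libraries fall into 3 groups, which set most of these values.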

How the data were processed

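RNA-seq was from 15 libraries. After trimming, the authors mapped reads to GRCh38 (STAR), summed them over genes (featureCounts) and deposited log2 CPM from edgeR; versions, annotation and strand setting are not given in the sources used here. Whole reads were recovered from the deposited log2 values with a prior of 2 reads (100% whole, deviation at most 2.46e-06 reads). Rows without an identifier, 30 and 114, held 0.027% to 0.0363% of reads and were left out. Genes at log2 CPM -1 or more in 3 libraries were tested by limma 3.58.1 in R 4.3.3 with an intensity trend, 1 fit per table, with Benjamini-Hochberg adjustment over all tested genes. The code was tested on simulated data and recovered 200 of 200 changed genes in HSP90α-KO against EV, over 17039 genes. It also called 3 unchanged genes there. Changes were planted only in genes with ample reads, above the threshold of change and with a fixed spread between replicates. Calls of genes with few reads were therefore not covered. Counting intervals are exact and binomial at 95%, conditional on the summed reads of 2 groups; intervals and limits (3 reads) cover counting error only. Members and lists were chosen with earlier results of these data known. Named genes were all members, HSP90AA1 and HSP90AB1, FCER1A and FCER1G, each gene of the lists and flanks changed in any comparison, and the 3 genes most like MS4A3; MS4A1, CPA3, TPSAB1, MPO, ELANE, CTSG and CDKN3 were named after their values were seen. Alternatives were other filters, pseudocounts, scalings, voom, a replicate block and leaving out each library. Column names spelling DSMO were read as DMSO.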

Additional observations from a re-analysis of the deposited data

How the results depend on the processing

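The number of changed genes, 1760 in HSP90α-KO, 764 in HSP90β-KO and 1660 in PUHr, was 717, 272 and 751 among genes with a mean log2 CPM of at least 1. It was 823, 289 and 941 with a pseudocount of 1 CPM, 346, 90 and 385 with 5 CPM, and 9230, 5864 and 8480 by adjusted p alone. Leaving out single libraries gave 1541 to 1729, 706 to 742 and 1371 to 1484. Replicate numbers did not pair the libraries (largest correlation 0.045), and a replicate block gave 1759, 763 and 1662. In HSP90α-KO, MS4A3 and MS4A4A were called in all 20 alternatives and MS4A4E and MS4A6A in the 19 that tested them. MS4A2 was called in the 16 that tested it, and leaving out any HSP90α-KO library took it out of the test. Members were chosen on this comparison, and MS4A2, MS4A4E and MS4A6A entered the test only through the HSP90α-KO libraries. Nothing is therefore read from these tallies. With a pseudocount of 5 CPM the log2 difference of MS4A2 was 1.23 and that of MS4A3 5.10. In HSP90β-KO, MS4A4A lost its call with 5 CPM, and MS4A6A with 1 and 5 CPM. MS4A6A was not tested when the fit held only the EV and HSP90β-KO libraries, or with a mean log2 CPM of at least 1. Without EV replicate 1 SLC4A1 lost its call in HSP90α-KO, without EV replicate 3 or HSP90α-KO replicate 3 CD22 did, and without HSP90α-KO replicate 1 FAM111A-DT did. In PUHr ALAS2 lost its call without parental replicate 2, PUHr replicate 1 or PUHr replicate 3, and FAM111A-DT without PUHr replicate 1. Calls of list and flanking genes, members left out, were also counted with 1 and 5 CPM. Of 34 in HSP90α-KO 10 and 22 were lost, of 9 in HSP90β-KO 6 and 7, and of 25 in PUHr 5 and 16. Quantile normalization took the call of MYB in HSP90α-KO, median centring that of ALAS2 in PUHr, and no filter those of TYROBP and FAM111A-DT in PUHr. Of 847 values of members and lists under alternatives, 735 stayed close and 112 moved, and no called member changed sign. Among differences that were not called, the sign changed for MS4A2 under 2 alternatives and MS4A4E under 1 in HSP90β-KO, and for MS4A4A under 4 in PUHr. Few reads on MS4A2, MS4A6A and MS4A4E limit their values outside HSP90α-KO.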
